A study of Homo sapiens with 4 samples.

Results

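The pro-apoptotic BCL2 family is described here by 9 genes, BAX, BAK1, BCL2L11, BID, BBC3, BAD, BMF, PMAIP1 and BIK, which were selected by gene name from the 28482 genes of the deposited table. All 9 were found, and 8 of them passed the expression filter of 1 CPM (counts per 1000000 counts of the library) in at least 2 libraries, as did 13296 genes in all. The 8 were above that level in all 4 libraries, so none entered through a group in which it was high, and BIK did not reach it in any. RNA was sequenced from K562/G01, a line that resists imatinib and descends from the chronic myeloid leukemia line K562, whose BCR-ABL1 fusion kinase is the target of the drug. All cells carried a lentivirus, with either a scramble hairpin or a hairpin against the transcription factor TCF7. Cultures of both kinds were kept without drug or with 1 µM imatinib over 48 hours. This gives the groups scramble, TCF7 knockdown, scramble with imatinib and TCF7 knockdown with imatinib, with 1 library each, and the labels name 1 scramble and 1 TCF7 hairpin. The labels do not say whether cultures were infected separately, so the hairpin and any lasting difference between the scramble and knockdown cultures cannot be told apart.

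Proteins of the BCL2 family decide whether the outer mitochondrial membrane is opened, which releases cytochrome c and starts the caspases. BAX and BAK1 are the effectors that form the pores. BH3-only proteins act upstream of them. BIM (encoded by BCL2L11), PUMA (BBC3) and the cleaved form of BID can activate the effectors and bind the anti-apoptotic members, whereas BAD, BMF, NOXA (PMAIP1) and BIK mainly occupy the anti-apoptotic members. In BCR-ABL1 leukemia cells BIM is the member best known for taking part in killing by kinase inhibitors, since the kinase lowers BIM through ERK and through the FOXO transcription factors.

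The bases before the start site are shown for BCL2L11 and BAK1, the members that held one of the searched factor motifs there, the FOXO motif and the TCF/LEF core to which factors such as TCF7 bind. The sequences are from RefSeq (GRCh38.p14), 5′ to 3′ on the strand of the gene, and capitals mark the motif. The BCL2L11 stretch is chr2:111120664-111120913 on the plus strand and the BAK1 stretch chr6:33580277-33580526 on the minus strand.
BCL2L11: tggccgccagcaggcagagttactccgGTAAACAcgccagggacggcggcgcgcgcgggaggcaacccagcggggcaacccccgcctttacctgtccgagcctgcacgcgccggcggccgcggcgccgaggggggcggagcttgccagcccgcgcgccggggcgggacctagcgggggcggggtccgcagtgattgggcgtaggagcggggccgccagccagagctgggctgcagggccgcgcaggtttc
BAK1: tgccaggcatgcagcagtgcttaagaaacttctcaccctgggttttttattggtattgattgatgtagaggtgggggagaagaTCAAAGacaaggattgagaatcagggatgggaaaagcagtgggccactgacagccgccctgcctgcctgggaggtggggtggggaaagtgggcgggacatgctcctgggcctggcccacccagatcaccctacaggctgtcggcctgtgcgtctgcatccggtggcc
The 76.8% of G and C before BCL2L11 compared with 58.0% before BAK1. Windows from 250 bases before to 50 after a start site were searched on both strands for GTAAACA (FOXO), CTTTGA (TCF/LEF core) and TTCNNNGAA (STAT). RefSeq windows matched 8 of the 9 members, 14 windows in all because BID, BAD and BMF have several starts. GTAAACA was found in the BCL2L11 window, at -223 to -217 from the start on the strand of the gene, and CTTTGA in the BAK1 window, at -167 to -162 on the opposite strand. None of the other 12 windows held one of the motifs. Of 35116 windows of all genes 3.42% held the FOXO motif, 12.9% the TCF/LEF core and 7.66% the STAT motif. A match describes the letters only and is not evidence of binding.

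Each library held between 30634832 and 34095585 counts. TCF7 had 339 and 367 counts in the scramble libraries without and with imatinib and 78 and 117 in the knockdown libraries, and it fell with knockdown (log2 fold change -1.75, SE 0.206, edgeR adjusted p = 1.53e-07). All 10 genes listed as marks of K562 identity, among them GATA1, TAL1 and the globin genes HBG1, HBG2 and HBE1, were at 1 CPM or more in every library, with sums between 3359.6 and 3634.5 CPM; none was called for knockdown by edgeR without offsets for GC content and length (2 at an unadjusted p under 0.05, and 0 by DESeq2), whereas with them HBE1 was called as lower (adjusted p = 0.0307). With imatinib 3 of the 10 rose and 4 fell, beside 13.8% and 7.08% of all tested genes, and DESeq2 called 6. With the offsets 1 rose and 2 fell, beside 2.08% and 2.27% of all genes. Of 12 markers of lymphoid, stromal, epithelial and liver cells 11 were in the table, none of them at 0 in all libraries, and their sums lay between 61.5 and 77.4 CPM, of which EPCAM made up the most (highest value 58.5 CPM). EPCAM fell with imatinib (log2 fold change -0.25, edgeR adjusted p = 0.0486, and 0.0762 with the offsets). CD3D, a lymphoid marker, was called as lower with imatinib only with the offsets (-0.44, edgeR adjusted p = 0.0138, and 0.0505 without them). COL1A1, a collagen gene of stromal cells, had 0.151 and 0.205 CPM in the scramble libraries and 1.37 and 1.01 CPM in the knockdown libraries and rose with knockdown (edgeR adjusted p = 0.00143; DESeq2 adjusted p = 0.138). The part of other cells in the members' values was not tested, and in bulk RNA more cells with a transcript and more transcript per cell cannot be told apart.

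**Figure D1:**
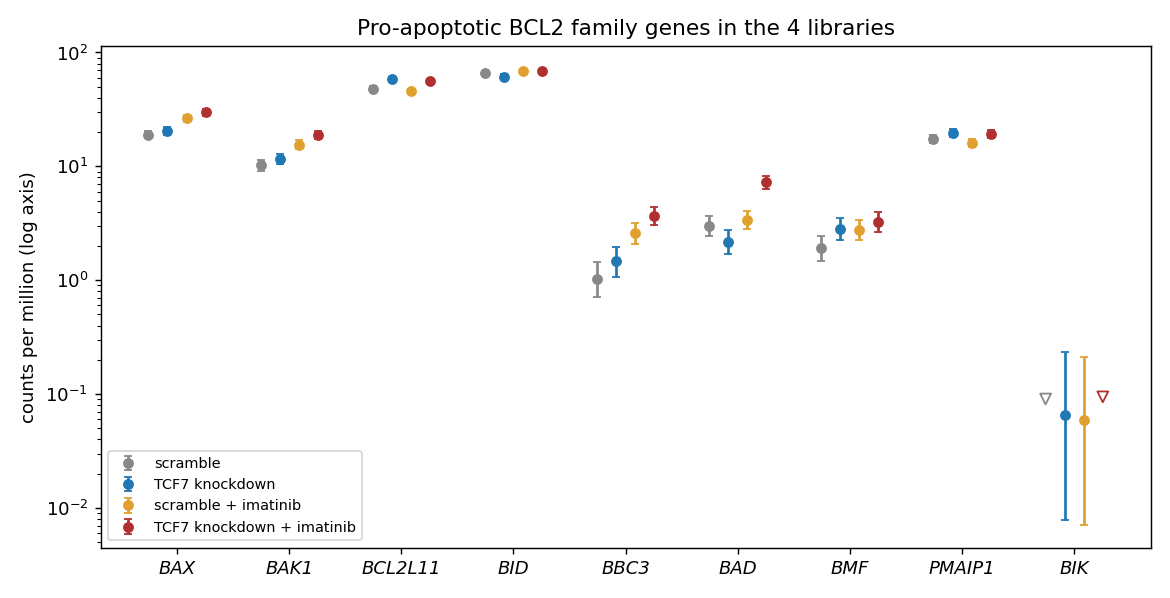
Level of each pro-apoptotic BCL2 family gene in the 4 libraries, in CPM on a log axis. Points are single libraries, bars are exact 95% Poisson intervals of the count, and open triangles mark a count of 0 at the level of 3 counts that it allows. BAX, BAK1 and BBC3 are higher in both libraries with imatinib, BCL2L11 is higher in both knockdown libraries, BAD is high in the knockdown library with imatinib, and BIK is near 0.

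Per length, BID was the most abundant member and BIK the least. On the scale of the deposited FPKM columns, in which counts are divided by library total and gene length, BID lay between 13.8 and 15.5 in the 4 libraries, above every value of the next gene, BAX, which lay between 7.36 and 11.5. PMAIP1 (7.15 to 8.78), BCL2L11 (6.85 to 8.78) and BAK1 (4.62 to 8.49) followed, and the ranges of neighbours from BAX down to BAK1 overlapped. BAD lay between 1.28 and 4.24, below BAK1 and above BBC3 (0.323 to 1.16), whose range overlapped that of BMF (0.354 to 0.601). BIK, at up to 0.0685, was below all of them. The line thus held RNA of both effectors, of the activators BIM and BID, and of NOXA, all at a higher level per length than PUMA, BMF and BIK.

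The knockdown comparison asks whether lowering TCF7 goes with a change in these death genes, with and without the drug. BCL2L11 was the only member that rose, and no member fell, so 1 of 8 was called, beside 3.8% of all tested genes that rose and 3.34% that fell. With offsets for GC content and transcript length in the same test the count was again 1 of 8, BCL2L11, beside 6.77% and 5.53% of all genes. The test was the edgeR quasi-likelihood test of 2 knockdown against 2 scramble libraries with imatinib as a second factor, adjusted over all 13296 genes. With 1 library per group, its error is the departure from additive effects of the 2 factors, moderated over all genes. The p-values therefore do not measure spread between replicate cultures. The log2 fold changes of the 8 members had a median of 0.27, with 7 of 8 above 0, beside a median of 0.01 over all genes. In 3 members, BCL2L11, BMF and PMAIP1, both knockdown libraries were above both scramble libraries in CPM, and in no member both were below, beside 15.0% and 17.7% of all genes.

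BCL2L11 (ENSG00000153094.22; GRCh38 chromosome 2, 111119378 to 111168447) encodes BIM. It had 48.2 CPM in the scramble library (exact 95% Poisson interval 45.9 to 50.7) and 58.4 CPM in the knockdown library (55.8 to 61.2). Under imatinib the levels were 45.6 CPM (43.4 to 47.9) in scramble and 56.1 CPM (53.6 to 58.8) in knockdown cells. Both knockdown libraries were therefore above both scramble libraries, and the intervals of the groups did not overlap. The log2 ratio of knockdown over scramble, with its exact 95% binomial interval that covers counting error only, was 0.28 (0.19 to 0.38) without and 0.32 (0.22 to 0.42) under imatinib, or 1.22-fold and 1.25-fold. In the fit over all libraries BCL2L11 rose by a log2 fold change of 0.30 (SE 0.0893, edgeR adjusted p = 0.0314), higher in 2 of 2 pairs, and the adjusted p was 0.000793 with the offsets. DESeq2 gave the same fold change but did not call it (adjusted p = 0.332), nor did edgeR without the term for imatinib (adjusted p = 0.814). In that form, leaving out any one library also left it uncalled, with log2 fold changes between 0.25 and 0.35.

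BCL2L11 shares 727 exon bases with MIR4435-2HG, a long noncoding RNA gene on the opposite strand, and without a stated strand setting of the counting, reads of the shared bases cannot be told apart. MIR4435-2HG had 3122 and 2919 counts in the scramble libraries and 2444 and 2548 in the knockdown libraries, against 1599 and 1555 and then 1790 and 1782 for BCL2L11. Its log2 fold change with knockdown was -0.15, opposite in sign to that of BCL2L11, and it was not called (edgeR adjusted p = 0.295). The protein-coding genes most like BCL2L11 over the 4 libraries, of 9369 searched with a mean of at least 5 CPM, were STARD3NL, SAR1A and SESN1, at Euclidean distances of 0.024, 0.031 and 0.034 between log2 CPM values centred on each gene's mean.

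PMAIP1 (ENSG00000141682.11; chromosome 18, 59899948 to 59904306) encodes NOXA, which binds MCL1. It had 17.4 CPM in the scramble and 19.6 CPM in the knockdown library, and 16.0 CPM and 19.1 CPM under imatinib. The knockdown libraries were again the higher ones, by log2 ratios of 0.18 (0.01 to 0.35) and 0.27 (0.11 to 0.45), but PMAIP1 was not called (log2 fold change 0.23, SE 0.129, edgeR adjusted p = 0.347). BMF (ENSG00000104081.13; chromosome 15, 40087890 to 40108892), whose protein binds a dynein light chain and is released by loss of attachment, had 1.93 and 2.84 CPM without and 2.79 and 3.28 CPM under imatinib in scramble and knockdown cells. Its log2 ratios of 0.55 (0.08 to 1.05) and 0.25 (-0.16 to 0.67) rest on 64 to 104 counts, and the edgeR test did not call it (adjusted p = 0.521). BMF shares 461 exon bases with BMF-AS1 on the opposite strand.

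For the effectors the knockdown ratios were small. Knockdown over scramble gave for BAX log2 ratios of 0.11 (-0.05 to 0.27) in untreated and 0.19 (0.06 to 0.32) in treated cells, and for BAK1 0.19 (-0.03 to 0.41) and 0.29 (0.12 to 0.47). Neither was called for knockdown (edgeR adjusted p = 0.522 for BAX and 0.365 for BAK1). BID (ENSG00000015475.18; chromosome 22, 17734138 to 17774770), which caspase-8 cleaves and so links death receptors to mitochondria, had 65.8 and 61.2 CPM without and 68.7 and 69.0 CPM under imatinib in scramble and knockdown cells. Its ratios, -0.09 (-0.18 to -0.005) and 0.03 (-0.06 to 0.11), are the smallest of the tested members (edgeR adjusted p = 0.883). BBC3, with knockdown ratios of 0.50 (-0.15 to 1.21) and 0.52 (0.12 to 0.95), did not pass the edgeR test (adjusted p = 0.417).

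**Figure D2:**
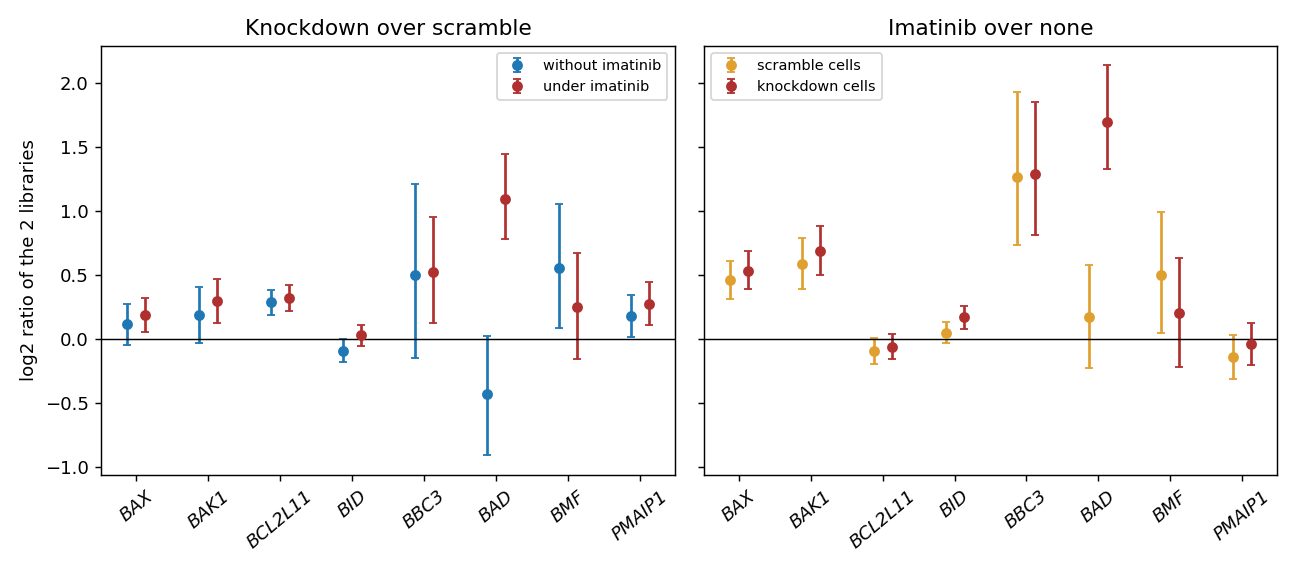
Log2 ratio of knockdown over scramble (left) and of imatinib over none (right) for the 8 tested members. Points are ratios of 2 libraries and bars are exact 95% binomial intervals of their counts, which cover counting error only. BCL2L11 lies near 0.3 in both knockdown pairs and just below 0 in both imatinib pairs, BAX, BAK1 and BBC3 lie above 0 in both imatinib pairs, and BAD differs between the pairs.

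The imatinib comparison asks whether the drug changes these genes in cells selected to resist it. BAX, BAK1, BBC3 and BAD rose, no member fell, and BCL2L11 was not called. These 4 of 8 members compare with 13.8% of all tested genes that rose and 7.08% that fell. The log2 fold changes of the 8 members had a median of 0.43, with 6 of 8 above 0, beside a median of -0.004 over all genes. In 5 members, the same 4 and BID, both imatinib libraries were above both untreated ones in CPM, beside 28.9% of all genes, and in none were both below, beside 24.7%. With offsets for GC content and transcript length in the same edgeR test, 0 of 8 members were called, 1 of them, BAK1, at an unadjusted p under 0.05, beside 2.08% of all genes called as higher and 2.27% as lower. In that test the 4 genes kept a positive sign, with log2 fold changes between 0.19 and 0.61. The median over the 8 members was then 0.18, beside -0.007 over all genes. Without the term for knockdown edgeR called 0 of 8 (4 at an unadjusted p under 0.05), and in that form leaving out the scramble, the knockdown or the knockdown library with imatinib gave 0 calls and leaving out the scramble library with imatinib gave 1, BAD.

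BAX (ENSG00000087088.19; chromosome 19, 48954815 to 48961798) had 19.0 CPM in the scramble and 20.5 CPM in the knockdown library. With imatinib it had 26.5 CPM in scramble and 29.7 CPM in knockdown cells, and both values were above both untreated ones. The log2 ratio of imatinib over none was 0.46 (0.31 to 0.61) in scramble and 0.53 (0.39 to 0.68) in knockdown cells. BAX rose (log2 fold change 0.50, SE 0.115, edgeR adjusted p = 0.00212), higher in 2 of 2 pairs, and DESeq2 called it too (adjusted p = 0.0412). With the offsets the log2 fold change was 0.19 (SE 0.105, adjusted p = 0.355).

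BAK1 (ENSG00000030110.12; chromosome 6, 33572547 to 33580293) had 10.2 CPM in the scramble and 11.6 CPM in the knockdown library. With imatinib it had 15.5 CPM in scramble and 18.8 CPM in knockdown cells. As for BAX, the groups did not overlap, and the ratios were close to one another, 0.58 (0.39 to 0.79) in scramble and 0.69 (0.50 to 0.89) in knockdown cells. BAK1 rose (log2 fold change 0.64, SE 0.143, edgeR adjusted p = 0.00155; DESeq2 adjusted p = 0.0351). With the offsets the log2 fold change was 0.32 (SE 0.133, unadjusted p = 0.0155, adjusted p = 0.164).

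BBC3 (ENSG00000105327.17; chromosome 19, 47220822 to 47232766), the PUMA gene, was the member with the largest log2 fold change, from a low level. Its 34 counts in the scramble and 45 in the knockdown library compared with 88 in the scramble and 117 in the knockdown library with imatinib, or 1.03, 1.47, 2.58 and 3.69 CPM in that order. Imatinib over none gave log2 ratios of 1.27 (0.73 to 1.93) in scramble and 1.29 (0.82 to 1.85) in knockdown cells, or 2.41-fold and 2.44-fold. BBC3 rose (log2 fold change 1.32, SE 0.340, edgeR adjusted p = 0.00544), higher in 2 of 2 pairs. With the offsets the log2 fold change was 0.61 (SE 0.346, adjusted p = 0.382), and DESeq2 gave no adjusted p at this level. Both BBC3 and BAD were below a stricter filter of 5 CPM in at least 2 libraries, under which they were not tested.

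BAD (ENSG00000002330.13; chromosome 11, 64269830 to 64284704) encodes a BH3-only protein that survival kinases such as AKT keep phosphorylated and bound to 14-3-3 proteins. It had 2.99 CPM in the scramble library, 2.19 CPM in the knockdown library, 3.40 CPM in the scramble library with imatinib and 7.25 CPM in the knockdown library with imatinib, from 99, 67, 116 and 230 counts. One library, the knockdown library with imatinib, was high, and the others lay between 2.19 and 3.40 CPM, with the untreated knockdown library lowest. The log2 ratio of imatinib over none was therefore 0.17 (-0.23 to 0.57) in scramble and 1.70 (1.33 to 2.14) in knockdown cells. In the fit over all libraries BAD rose by a log2 fold change of 0.95 (SE 0.291, edgeR adjusted p = 0.0186), but without the knockdown library with imatinib the log2 fold change was 0.38 (adjusted p = 0.739, in a fit without the knockdown term). With the offsets it was 0.37 (SE 0.258, adjusted p = 0.505). BAD shares 404 exon bases with GPR137 on the opposite strand, which had 278, 244, 376 and 359 counts in the same order and does not share the high value.

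The remaining members were not called for imatinib. BCL2L11 had log2 ratios of -0.10 (-0.20 to 0.01) in scramble and -0.06 (-0.16 to 0.03) in knockdown cells (edgeR adjusted p = 0.567). Both counting intervals lay below those of BAX, but they cover counting error only. With a trend over GC content and length removed, the ratios were -0.05 and -0.01 for BCL2L11 and 0.25 and 0.14 for BAX. PMAIP1 had -0.14 (-0.31 to 0.03) and -0.04 (-0.21 to 0.12) and an adjusted p of 0.657 in the edgeR test. BID had 0.05 (-0.04 to 0.13) and 0.17 (0.08 to 0.26), with an edgeR adjusted p of 0.379, and BMF 0.50 (0.04 to 0.99) and 0.20 (-0.22 to 0.63), with 0.433. BIK (ENSG00000100290.2; chromosome 22, 43110748 to 43129712), a BH3-only gene of the endoplasmic reticulum, had 0 and 2 counts in untreated and 2 and 0 counts in treated scramble and knockdown cells. A count of 0 allows up to 0.0905 CPM in the scramble library and 0.0945 CPM in the knockdown library with imatinib, so no difference was detectable at this depth.

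The size of the imatinib change of a member went with the GC content of its transcript. Across the 8 tested members the Spearman correlation of GC content of the longest GENCODE transcript with the log2 fold change was 0.98, and across 13255 genes it was 0.69. Genes are not independent replicates, and all of these values come from the same 4 libraries. PMAIP1 (37.2% GC), BCL2L11 (45.7%) and BID (49.7%) lay lowest, BMF (54.8%), BAK1 (58.8%) and BAX (58.9%) followed, and BAD (66.3%) and BBC3 (69.7%) lay highest. The median over the members was 56.8% and over all genes 47.3%. Of all genes between 55% and 60% GC 34.1% rose with imatinib, of those between 65% and 70% GC 64.3%, and of those between 45% and 50% GC 2.10%. The median log2 fold change of these 3 classes was 0.27, 0.58 and -0.03.

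A smooth curve fitted to the imatinib ratios of all genes against GC content and length gave 0.48 in scramble and 0.88 in knockdown cells at the GC content and length of BBC3, and with that curve subtracted BBC3 had 0.79 and 0.41. BAK1 had 0.36 and 0.29 with the trend removed, BAX 0.25 and 0.14, and BAD -0.26 and 0.98. BAX, BAK1, BBC3 and BID (0.03 and 0.10) were above the trend in both pairs, and BAD only in knockdown cells. BMF was above it only in scramble cells, PMAIP1 only in knockdown cells and BCL2L11 in neither. The share of all genes above the trend in both pairs was not counted, so nothing about the members is read from these signs. With the offsets no member was called for imatinib. The knockdown ratios of BCL2L11 were 0.31 and 0.33 with the trend removed, close to those without. By the distance used for BCL2L11, the most similar protein-coding genes over the 4 libraries were FCHSD1, FRMD8 and ARHGEF1 for BAX (0.019 to 0.030), C16orf59, TAF6L and ADAM15 for BAK1 (0.038 to 0.067), and MRPL12, C1orf122 and FAM109A for BAD (0.24 to 0.27).

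**Figure D3:**
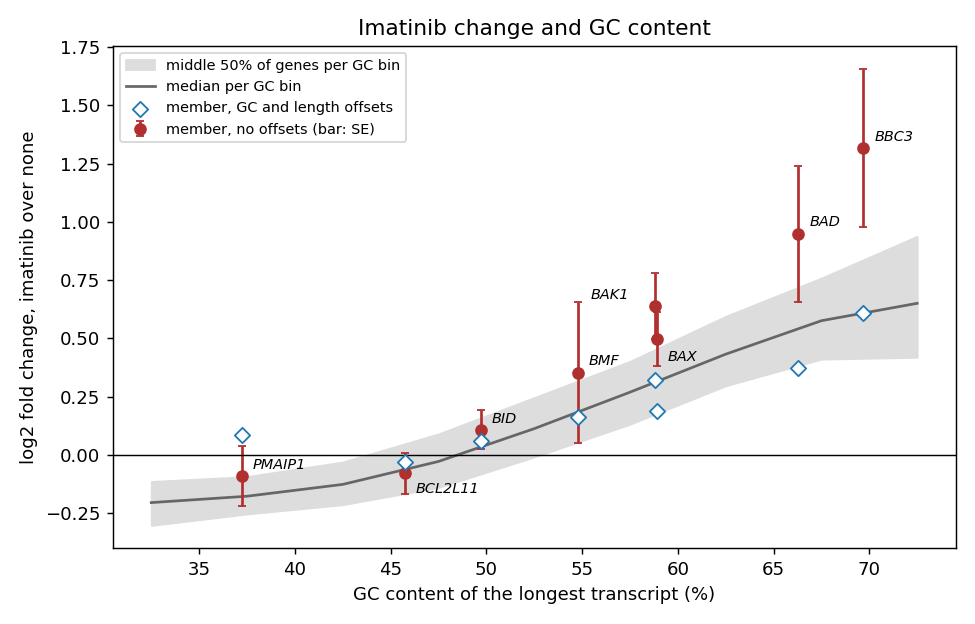
Imatinib log2 fold change from the additive edgeR fit against the GC content of the longest transcript. The line and band give the median and the middle 50% of all tested genes in bins of 5 percentage points, filled points with SE bars the 8 members, and open diamonds the members in the fit with GC and length offsets. The members climb with GC content from PMAIP1 to BBC3, and with the offsets they lie between -0.03 and 0.61.

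BAX, BAK1, BBC3, BAD, BMF and, by a small margin, BID had their highest CPM of the 4 libraries with knockdown and imatinib together. The share of all genes highest in that library was not counted, so nothing about the members is read from this. For BID the counting intervals of both imatinib libraries overlapped. The log2 ratio of knockdown over scramble under imatinib minus that without was 0.08 for BAX, 0.11 for BAK1, 0.02 for BBC3, 0.03 for BCL2L11, 0.10 for PMAIP1, 0.12 for BID and -0.30 for BMF, against 1.53 for BAD. With the trend over GC content and length removed it turned negative for BAX (-0.093), BAK1 (-0.063) and BBC3 (-0.35), and was -0.41 for BMF and 1.23 for BAD. This difference was not tested, since each state has 1 library. Of all tested genes 11.5% had ratios 1.5-fold or more apart and 3.71% 2-fold or more, and BAD was the only member at either limit. Within single pairs, 1 of 8 members was 1.5-fold or more higher with imatinib in scramble cells, BBC3, beside 4.4% of all genes, and 3 of 8 in knockdown cells, BBC3, BAD and BAK1 (1.61-fold), beside 11.7%. BAK1 in scramble cells was just under that limit at 1.498-fold. With knockdown, 1 of 8 was 1.5-fold or more higher under imatinib, BAD (2.14-fold), beside 5.26% of all genes, and 0 of 8 without imatinib, beside 3.67%. No member was 1.5-fold or more lower in any pair. Of all genes 5.51% and 4.69% were lower by that much with knockdown without and under imatinib, and 2.37% and 3.74% with imatinib in scramble and in knockdown cells.

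The anti-apoptotic partners were measured beside them. Of 4 tested genes none was called for knockdown (0 at an unadjusted p under 0.05, and 0 by DESeq2). With imatinib 2 rose, beside 13.8% of all tested genes. These were BCL2L1, which encodes BCL-XL, the main survival protein of erythroid cells (log2 fold change 0.42, SE 0.0893, edgeR adjusted p = 0.000996), and BCL2L2, which encodes BCL-W (0.40, adjusted p = 0.0234). BCL2L1 had 88.1 CPM in scramble and 81.4 CPM in knockdown cells without drug, and 98.5 and 131.5 CPM with it. In the same order MCL1 had 298.3, 285.6, 305.3 and 271.6 CPM and BCL2 3.89, 3.75, 5.19 and 2.84 CPM, with log2 fold changes for knockdown of -0.10 and -0.45 that were not called. With the offsets neither BCL2L1 nor BCL2L2 was called for imatinib (adjusted p = 0.152 and 0.167), nor by DESeq2 (adjusted p = 0.302 and 0.161).

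Other genes with a BH3-like region, 7 tested, gave 1 that rose and 1 that fell with knockdown, beside 3.8% and 3.34% of all genes. BCL2L12 rose with knockdown (0.38, edgeR adjusted p = 0.0305; DESeq2 adjusted p = 0.390) and with imatinib (0.59, adjusted p = 0.000252, and 0.0966 with the offsets). BNIP3, a mitophagy receptor induced by hypoxia, fell with both, from 99.2 CPM in the scramble library to 70.1, 79.1 and 45.1 CPM in the other 3 (log2 fold changes -0.64 and -0.49, edgeR adjusted p = 1.89e-06 and 0.000108), and both calls were kept with the offsets. BNIP3L, its relative that clears mitochondria from red cell precursors, fell with imatinib (-0.34, adjusted p = 0.00104, and 0.0654 with the offsets). HRK, another BH3-only gene, had 1 count over the 4 libraries.

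Downstream of the mitochondria, 15 genes of the apoptosome, caspases and released factors had a median knockdown log2 fold change of -0.06. None was called by edgeR without offsets (0 at an unadjusted p under 0.05, and 0 by DESeq2), and with the offsets 1 was, CASP2 (0.18, adjusted p = 0.0449). With imatinib CYCS, which encodes cytochrome c, fell (-0.28, edgeR adjusted p = 0.00422) and ENDOG, a mitochondrial nuclease, rose (0.48, adjusted p = 0.0343), and neither was called with the offsets (adjusted p = 0.129 and 0.668), where HTRA2, a mitochondrial protease gene, was called as lower (-0.32, adjusted p = 0.00299). Of 5 tested IAP genes, the caspase inhibitors, none was called for knockdown (1 at an unadjusted p under 0.05, and 0 by DESeq2), and BIRC6 fell with imatinib (-0.19, adjusted p = 0.0434, and 0.640 with the offsets). In the death receptor pathway, 2 of 10 tested genes rose and 1 fell with knockdown, beside 3.8% and 3.34% of all genes. TNFSF10, which encodes the death ligand TRAIL, had 1.81 and 1.58 CPM in the scramble libraries without and with imatinib and 8.23 and 7.31 CPM in the knockdown libraries, and it rose (log2 fold change 2.21, SE 0.249, edgeR adjusted p = 6.81e-08). CASP8, the initiator caspase that cleaves BID, rose (0.32, adjusted p = 0.0161), and TNFRSF10B, a TRAIL receptor, fell (-0.31, adjusted p = 0.0423). DESeq2 called TNFSF10 but not CASP8 or TNFRSF10B (adjusted p = 0.232 and 0.369), and with the offsets edgeR called all 3 and TNFRSF10A, another TRAIL receptor gene, as lower (-0.25, adjusted p = 0.0279). With imatinib TRADD, a receptor adaptor (0.93, adjusted p = 0.00494), and TNFRSF1A, a TNF receptor (0.42, adjusted p = 0.0101), rose, and with the offsets neither was called (adjusted p = 0.433 and 0.494), whereas CASP8 was (0.25, adjusted p = 0.0193).

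**Figure D4:**
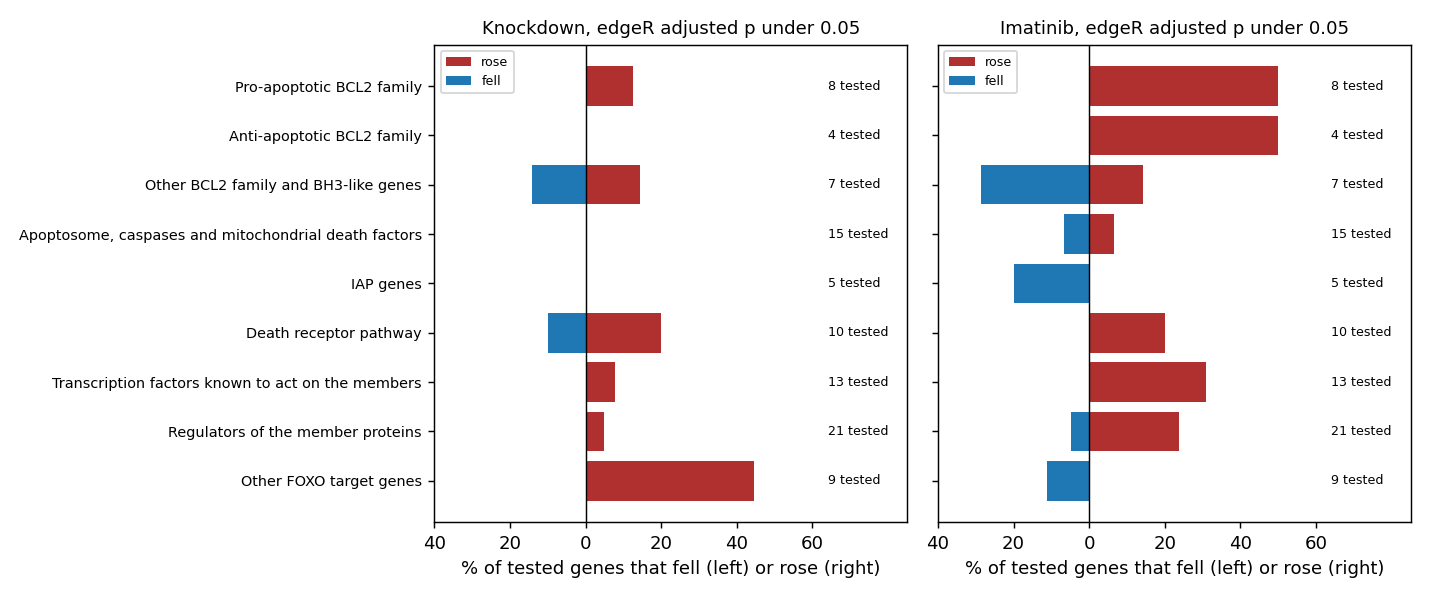
Share of the tested genes of each list shown that rose (right of 0) or fell (left of 0) with knockdown or with imatinib, by the edgeR test at an adjusted p under 0.05 without offsets. The lists of K562 identity, other cell types and p53 targets are not drawn. Bars are percentages of the number of tested genes printed beside them. The pro-apoptotic and the anti-apoptotic lists each have 50% of their few genes higher with imatinib, beside 13.8% of all tested genes. With offsets for GC content and length no gene of either list is called for imatinib. With knockdown the FOXO target list has 4 of 9 genes higher, beside 3.8% of all tested genes.

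Upstream, 13 tested transcription factors known to act on these genes had 1 that rose with knockdown, beside 3.8% of all genes. It was FOXO4, from 11.9 and 14.1 CPM in the scramble libraries to 19.1 and 22.4 CPM in the knockdown libraries (log2 fold change 0.69, SE 0.133, edgeR adjusted p = 0.000625, DESeq2 adjusted p = 0.0277). With the offsets ATF4, a stress factor, was called as lower too (-0.22, adjusted p = 0.00465). FOXO3, which can switch on BCL2L11 and BBC3, had 60.3 and 55.2 CPM without and 56.6 and 51.0 CPM with imatinib in scramble and knockdown cells and was not called for either factor (adjusted p = 0.475 and 0.373). With imatinib 4 of the 13, whose median GC content was 53.9%, rose beside 13.8% of all genes, MYC (0.28), E2F1 (0.57), JUN (0.47) and EGR1 (0.26), and none of these was called with the offsets (edgeR adjusted p between 0.326 and 0.799). Without offsets all 4 had an adjusted p between 0.00362 and 0.0305, and DESeq2 called MYC of the 13.

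Among 9 tested FOXO target genes outside the family, 4 rose with knockdown and none fell, beside 3.8% and 3.34% of all genes, with a median log2 fold change of 0.26 beside 0.01 over all genes. These were TXNIP (0.32, edgeR adjusted p = 0.00448), CCNG2, a cyclin (0.71, adjusted p = 0.0255), CITED2 (0.26, adjusted p = 0.0257) and CDKN1B, which encodes the cell cycle inhibitor p27 (0.36, adjusted p = 0.0285). DESeq2 called 0 of the 9 for knockdown, and edgeR gave 6 at an unadjusted p under 0.05; with the offsets 5 were called as higher, the same 4 and SESN3, and BCL6 as lower, beside 6.77% and 5.53% of all genes. With imatinib SESN3 fell (-0.57, adjusted p = 0.000968, and 0.0156 with the offsets). Among 15 tested p53 target genes outside the family, 1 rose and 2 fell with knockdown, beside the same shares of all genes. Their median log2 fold change with knockdown was 0.05. With imatinib 2 of the 15 rose and 3 fell, beside 13.8% and 7.08% of all genes, and none was called with the offsets.

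Of 21 tested genes whose products modify or hold the member proteins, 1 rose with knockdown, beside 3.8% of all genes. It was PRKACA, a kinase that phosphorylates BAD (0.33, edgeR adjusted p = 0.0387). DESeq2 called 0 of the 21 for knockdown. With the offsets edgeR called 3 as higher, beside 6.77% of all genes, PRKACA, AKT1 and DYNLL2 (adjusted p = 0.0115, 0.0225 and 0.0169). With imatinib 5 of the 21 rose and 1 fell, beside 13.8% and 7.08% of all genes. Those that rose were the kinase genes PIM1 (0.40), PIM3 (0.70), AKT2 (0.40), AKT1 (0.37) and PRKACA (0.30), with edgeR adjusted p between 8.32e-05 and 0.0289. DYNLL1, which encodes the dynein light chain that binds BIM, fell (-0.21, adjusted p = 0.0491, and 0.000117 with the offsets). With the offsets none of the 5 kinase genes was called for imatinib (adjusted p between 0.0734 and 0.831), and MAPK3, which encodes the kinase ERK1, was called as lower (-0.46, adjusted p = 0.00874).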

How the data were processed

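The members and gene lists were chosen with earlier results of these data known. Per the labels' protocols, ribosomal RNA was removed from 3 µg of total RNA and libraries were made with a kit that keeps strand. The submitters' processing notes name FastQC, HISAT2, HTSeq 0.6.1 and GRCh38. Annotation release and strand setting of counting were not given in the sources used here. Per gene, the authors deposited whole-number read counts, which were used unchanged, and FPKM columns, which were treated as a score because 6 genes have negative values and served only for levels per length. The log2 FPKM columns were not used. Gene identifiers were matched to GENCODE release 29 (28329 of 28482) for positions, GC content and length of the longest transcript.

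With 1 library per group, knockdown and imatinib were tested in an additive edgeR 4.0.16 quasi-likelihood fit (R 4.3.3, TMM scaling, 1 residual and 33.7 prior degrees of freedom), adjusted by Benjamini-Hochberg. SE is the log2 fold change divided by the square root of F. Pair ratios used a prior count of 2 and no test. GC and length offsets were smooth terms per library (mgcv 1.9.3), for 13255 genes. Alternatives were DESeq2 1.42.0, other scalings, filters, prior count and fold limits, and left-out libraries. Named genes were all members, up to 6 called genes per list by adjusted p, BCL2, BCL2L1, MCL1 and FOXO3, and the most similar genes; some listed genes are not reported here. Reads are not independent molecules, so intervals cover counting error only.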

Additional observations from a re-analysis of the deposited data

Results flagged for a closer look

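BAD and BID had knockdown ratios of opposite sign without and under imatinib, and these differences were not tested, since each pair has 1 library per side. For BAD the log2 ratio was -0.43 (counting interval -0.91 to 0.02) without and 1.10 (0.78 to 1.44) under imatinib, a difference of 1.53, and 1.23 with the trend over GC content and length removed. For BID the ratios were -0.09 and 0.03, a difference of 0.12; with the trend removed they were -0.096 and -0.030, of the same sign, and 0.066 apart.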

How the results depend on the processing

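No paired analysis was possible because each group has 1 library and the labels give no replicate numbers. For knockdown, edgeR called 949 genes, DESeq2 272, edgeR with GC and length offsets 1631, and edgeR without the imatinib term 0 (818 at an unadjusted p under 0.05); in that last form 34 to 759 were called with 1 library left out. The called members numbered 1 (BCL2L11) in the additive fit, 0 by DESeq2 (1 at an unadjusted p under 0.05), 0 without the imatinib term (0 at an unadjusted p under 0.05), and 0 to 1 with a library left out, where the 1 was BAD without the knockdown library. For imatinib, edgeR called 2780 genes, DESeq2 1003, the fit with offsets 577 and the fit without the knockdown term 0 (2651 at an unadjusted p under 0.05), with 0 to 579 when a library was left out. The called members numbered 4, then 2 by DESeq2 (BAK1 and BAX; no adjusted p for BBC3, BAD and BMF), 2 with a filter at 5 CPM, 0 with offsets, 0 without the knockdown term (4 at an unadjusted p under 0.05) and 0 to 1 with a library left out, where the 1 was BAD without the scramble library with imatinib. Fewer libraries and no second term change the error of these fits together. Genes at 1.5-fold or more numbered 1220 for knockdown without imatinib (306 with a filter at 5 CPM, 356 at 2-fold), 1324 under imatinib (407 and 376), 900 for imatinib in scramble cells (227 and 174) and 2052 in knockdown cells (1059 and 493).

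Signs changed for values that were not called in the additive fit without offsets. PMAIP1 for imatinib was -0.092 and became 0.087 with offsets. With 1 library left out in the fits without the other factor, log2 fold changes for knockdown ran from -0.13 to 0.58 for BAK1, -0.13 to 0.41 for BAX, -0.11 to 0.039 for BID, -0.52 to 1.18 for BAD and -0.27 to 1.33 for BBC3, and for imatinib from -0.23 to 0.043 for PMAIP1 and -0.24 to 0.077 for BCL2L11. Other scalings and no filter left the calls of all 8 members on their side of the threshold. Depth limits BBC3, BAD and BMF, with 34 to 230 counts, and BIK.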
